A study of Mus musculus with 6 samples.

Results

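SNARE genes encode the small proteins, anchored in vesicles and in the membranes that receive them, which zip into a bundle of helices and so drive membrane fusion along the secretory route. The SNARE genes were taken from a list drawn up by gene name and family, with earlier results of these data known. Its counts therefore describe the list and are no independent test. All 36 had a probe set named for them alone, out of 18193 genes measured in this way. By a membrane assigned to each protein, 13 were placed on the route between the endoplasmic reticulum (ER) and the Golgi, 12 at endosomes and 11 at the plasma membrane. The 13 include Stx17, although it is best known for the fusion of autophagosomes with lysosomes.

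A fusing bundle holds a helix of each of the classes Qa, Qb, Qc and R, named after the glutamine (Q) or arginine (R) at its centre, and Qbc proteins such as Snap23 carry both the Qb and the Qc helix. By class, the list held 11 Qa, 5 Qb, 5 Qc, 4 Qbc and 11 R genes. After fusion the ATPase NSF pulls the bundle apart, and SM (Sec1/Munc18) proteins and tethers help the next bundle to form. In osteoblasts the main cargo of the route is procollagen, which passes through the ER and the Golgi before it leaves the cell.

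The AA cultures, 3 in number, were MC3T3-E1 subclone 4 cells, a line of mouse calvarial pre-osteoblasts, given ascorbic acid (AA) for 5 days. The 3 control cultures were the same cells left without AA for 5 days, and all were grown in α-MEM with serum. The labels give the dose as 50 µg with no volume, and the methods of the study give it per ml. Each RNA was read on its own Affymetrix array, and as both triplicate wells and triplicate experiments are described, p-values measure only the spread between these samples, which may be technical.

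Signals below are the deposited ones, on a linear scale with no detection calls. Fold changes are log2 AA over control, from quantile-normalized signals of 45037 probe sets in limma, with p-values adjusted by Benjamini-Hochberg over all of them, and a gene passed at an adjusted p under 0.05. Each gene is given by its brightest probe set, the one with the highest mean over the 6 arrays. The fit called 1219 probe sets higher (2.71%) and 1124 lower (2.50%) in AA. The median signal ran from 16.2 to 16.9 on the AA arrays and from 14.9 to 17.7 on the control arrays. Gapdh signal at the 3' end over that at the 5' end, which rises as RNA breaks down, was 0.791 to 0.799 on the AA arrays and 0.807 to 0.920 on the control arrays, where control replicate 3 was the highest. The same ratio for actin was 1.35 to 1.45 on the AA arrays. It was 1.43, 1.39 and 1.79 on control replicates 1, 2 and 3. The part of RNA quality in the probe sets where control replicate 3 was lowest was not tested. Of the osteoblast markers, Col1a1 read 6179 to 8001 on the AA arrays and 5662 to 6485 on the control arrays, ranges that overlap, while the mean normalized log2 signals of Phex and Dmp1 lay under the median of all probe sets. Of the 9 such markers measured, Alpl, Ibsp and Ifitm5 passed as higher in AA, and the summed signal of the 9 ran from 29593 to 38625 on the AA arrays and from 23446 to 27793 on the control arrays. Of the 18 markers of fat, cartilage, muscle, endothelium, blood and neurons, Col2a1, Csf1r and Tubb3 passed as higher, with sums over the 18 of 1069 to 1112 on the AA arrays and 695 to 784 on the control arrays. The 12 of them at or below the median signal, among them Adipoq, Acan, Myod1, Pecam1 and Ptprc, summed to 72.2 to 83.1 on the AA arrays and 52.6 to 92.4 on the control arrays. The part of other cell types in the SNARE results was not tested, and in whole-culture RNA fewer cells of a type and less RNA per cell cannot be told apart.

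Of the 36 SNARE genes, 8 rose in AA cultures and 0 fell by limma, with 16 higher and 3 lower at an unadjusted p under 0.05 and 9 and 3 by the methods' t-test at that p. Of all genes, 10.7% were higher and 12.9% lower at that unadjusted limma p (15.8% and 19.4% of genes above the median signal), and 7.46% and 8.32% by the methods' t-test. By limma, the 3 lower of 36 are a smaller share than that of all genes. The 8 were Bet1, Bet1l, Stx18 and Sec22b of the ER-Golgi route, and Vti1b, Stx8, Vamp7 and Vamp8 of endosomes. Their fold changes ran from 0.35 for Sec22b to 0.70 for Vti1b on the log2 scale, and none was a gene of the plasma membrane group. The 8 genes are 22.2% of the list, while 4.07% of all genes passed as higher and 3.85% as lower. As 34 of the 36 lay above the median signal, all except Vamp1 and Snap25, the nearer background was that of genes above it, of which 6.68% passed as higher and 6.32% as lower. The median log2 fold change was 0.22 over the 36 genes and -0.02 over all genes, and 26 of the 36 values were positive, those of Snap25 and Vamp1 included. Among all genes 8663 of 18193 values were positive, and 4969 of 10822 among genes above the median signal. Over the 34 SNARE genes above that signal the median was 0.18, and over all genes above it -0.03. In normalized signal, every AA array lay above every control array on 17 of the 36 genes, and the same held for 13.0% of all genes. On 4 (Stx6, Stx12, Stx16 and Vamp5) every AA array lay below, which held for 15.1% of all genes. Without replicate 2 only Bet1 and Vamp7 (2 genes) passed, and without replicate 1 it was 5 genes (Bet1, Bet1l, Stx8, Vamp7 and Vti1b). With arrays centred on their medians 4 passed, namely Bet1, Bet1l, Stx8 and Vamp7.

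**Figure D1:**
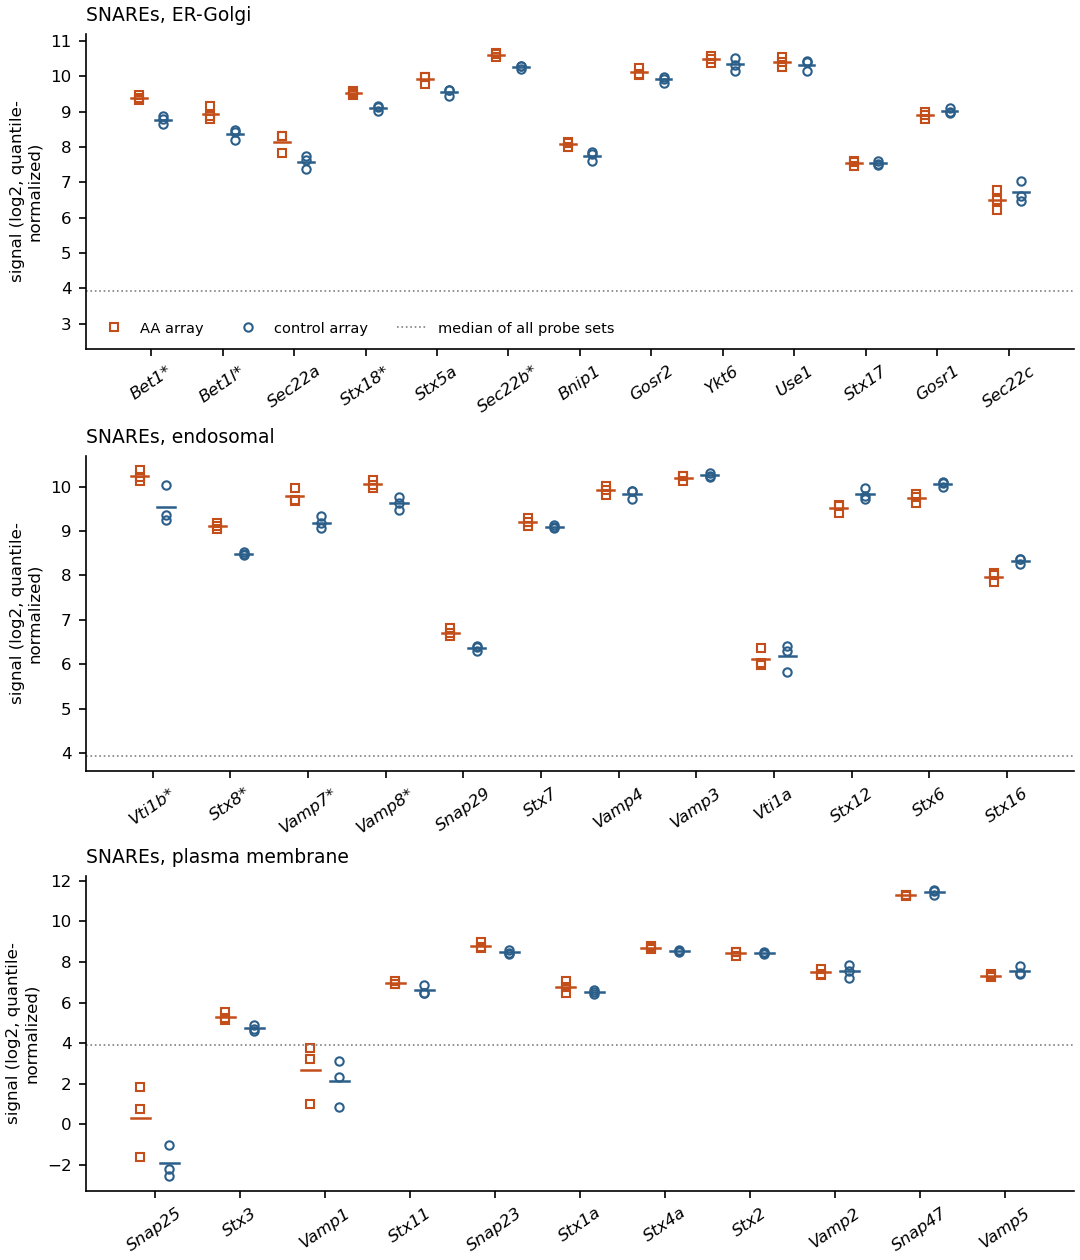
Signals of the 36 SNARE genes on each array, as log2 quantile-normalized values of each gene's brightest probe set, with AA arrays as squares left of the control arrays as circles, group means as bars and the median of all probe sets as a dotted line. An asterisk marks the 8 genes that passed, on all of which the AA squares lie above the control circles. Only Snap25 and Vamp1 lie below the median of all probe sets.

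The ER-Golgi group held 4 of the 8 genes that rose. All 13 of its genes lay above the median signal, where 6.68% of genes passed as higher. Of the 13 fold changes 11 were positive, with a median of 0.33 on the log2 scale and a range of -0.22 to 0.63. On 8 of the 13 genes the AA arrays all lay above the control arrays, against 13.0% of all genes. By probe set, 12 of the 33 that read these genes passed as higher and 0 as lower, against 2.71% and 2.50% of all probe sets. The 12 read only 6 genes, so they are not separate observations. The shares of all probe sets include dim ones, and of genes at or below the median signal only 0.231% passed as higher. No share was taken for probe sets above the median signal.

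Vesicles that leave the ER fuse with the Golgi through a bundle of Stx5a, Gosr2, Bet1 and Sec22b, of which Bet1 and Sec22b rose. Bet1, the Qc helix, had signals of 712, 667 and 642 on the AA arrays and 476, 446 and 405 on the control arrays. The lowest AA array was well clear of the highest control array. The log2 fold change was 0.63 ± 0.08 (SE, n = 3 each), the highest of the 13, with a limma adjusted p of 0.00398. The other probe set of Bet1 read 475, 435 and 424 on the AA arrays and 289, 246 and 201 on the control arrays, which gave 0.91 ± 0.10 on the log2 scale (limma adjusted p = 0.00219). Both probe sets of Bet1 therefore passed without overlap between the groups.

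Sec22b, the R helix of the same bundle, had signals of 1628, 1624 and 1505 on the AA arrays and 1245, 1231 and 1189 on the control arrays. No control array reached the AA range, and each group spanned a narrow one. Sec22b rose by 0.35 ± 0.07 on the log2 scale (limma adjusted p = 0.0260). The other probe set of Sec22b, at 739, 645 and 663 on the AA arrays and 613, 467 and 676 on the control arrays, overlapped between the groups and gave 0.25 (adjusted p = 0.258).

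Stx5a, the Qa helix on the Golgi side, had signals of 1011, 1008 and 877 on the AA arrays and 781, 690.1 and 793 on the control arrays. All AA arrays were above all control arrays, but the log2 fold change of 0.36 ± 0.09 stayed short of the threshold (limma adjusted p = 0.0669). Its other probe set gave 0.26 (adjusted p = 0.414). Gosr2, the Qb helix also called membrin, had 1212, 1074 and 1055 on the AA arrays and 1022, 971 and 911 on the control arrays, with a log2 fold change of 0.20 ± 0.07 (limma adjusted p = 0.193). Its second, dimmer probe set read 239.6, 221 and 195 on the AA arrays and 143, 124 and 142 on the control arrays, and passed at 0.71 ± 0.12 (adjusted p = 0.0153). The Gosr2 probe sets thus shared a direction and differed in size and call. The brightest probe sets of Stx5a and Gosr2 are of the kind that the maker marks as matching transcripts of more than 1 gene.

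Within the Golgi, cisternae and vesicles fuse through Stx5a with Gosr1, Bet1l and Ykt6. Bet1l, the Qc helix also known as GS15, had signals of 567, 459 and 443 on the AA arrays and 361, 295 and 351 on the control arrays. AA replicate 1 was the highest, and the groups did not overlap. Bet1l rose by 0.58 ± 0.10 on the log2 scale (SE, n = 3 each; limma adjusted p = 0.0146). Of the 3 other probe sets of Bet1l, those with log2 fold changes of 0.64 and 0.66 passed (adjusted p = 0.00965 and 0.0105), and the remaining one gave 0.45 (adjusted p = 0.158) with overlapping groups.

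Ykt6, an R-SNARE held to membranes by lipid, read 1559, 1319 and 1426 on the AA arrays and 1455, 1128 and 1289 on the control arrays. These overlapped, with a log2 fold change of 0.14 ± 0.07 (limma adjusted p = 0.380). Its dimmer probe set had 301, 302 and 292 on the AA arrays and 190.2, 187 and 137 on the control arrays. There the groups did not overlap, and the log2 fold change of 0.85 ± 0.11 passed (adjusted p = 0.00475), so that the call for Ykt6 rested on the probe set. Gosr1, the Qb helix known as GS28, read 465, 435 and 509 on the AA arrays and 502, 512 and 562 on the control arrays. Its log2 fold change was -0.12 (limma adjusted p = 0.517), while a dimmer probe set at 43.5, 46.1 and 47.5 on the AA arrays and 48.1, 36.4 and 30.1 on the control arrays gave 0.29 (adjusted p = 0.556).

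Vesicles that return to the ER meet Stx18, Bnip1 and Use1, which pair with Sec22b. Stx18, the Qa helix of the ER membrane, had signals of 764, 723 and 710.5 on the AA arrays and 582, 568 and 531 on the control arrays. All AA arrays were above all control arrays. The change was 0.41 ± 0.08 (SE, n = 3 each; limma adjusted p = 0.0211). This probe set is marked as open to cross-hybridization, as are the next 2 in signal, but the 4 others gave 0.45 to 0.58, and 3 of these passed (adjusted p = 0.0360, 0.0445 and 0.0472). The one at 0.45 had an adjusted p of 0.0690. All 5 had AA arrays above all control arrays.

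Bnip1, the Qb helix also called Sec20, is read by 1 probe set, at 253, 270 and 283 on the AA arrays and 232, 199.7 and 226 on the control arrays. It gave 0.33 ± 0.10 on the log2 scale (limma adjusted p = 0.137) with no overlap. Use1, the Qc helix, gave 0.08 (adjusted p = 0.724), with 0.13 and 0.66 at its other probe sets (adjusted p = 0.552 and 0.213). Of the bundle that serves this return step, Stx18 and Sec22b therefore passed, as did 2 of the 4 genes of the forward step and 1 of the 4 genes of the step within the Golgi.

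Among the other ER-Golgi genes, Sec22a, an ER relative of Sec22b, had signals of 312, 310 and 229 on the AA arrays and 214, 170.4 and 200.4 on the control arrays. AA replicate 3 lay close to the highest control array. The log2 fold change of 0.57 ± 0.14 did not pass (limma adjusted p = 0.0606), and a second probe set under the median signal gave 0.18 (adjusted p = 0.905). Sec22c, a further relative, read 109, 74.2 and 90.2 on the AA arrays and 97.9, 135 and 87.7 on the control arrays, and its probe sets gave -0.22 and -0.24 (adjusted p = 0.648 and 0.595). Stx17, a Qa protein best known for the fusion of autophagosomes with lysosomes, read 188, 172 and 191 on the AA arrays and 193, 188 and 181 on the control arrays. The log2 fold change was 0.00, with a 95% confidence interval of -0.23 to 0.24. The other probe sets of Stx17 disagreed in sign, at 0.02, 0.52 and -0.21, and none passed (adjusted p from 0.112 to 0.974).

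The promoters of Bet1, Sec22b, Bet1l and Stx18 are shown because these 4 genes of the ER-Golgi route rose together. Each line holds the 150 bases before the start site, from RefSeq on build GRCm38.p6 and read 5' to 3' on the gene's own strand. Capitals mark the GC box (GGGCGG, or CCGCCC on the other strand) and the CCAAT box (CCAAT, or ATTGG on the other strand).
Bet1, chr6:4086931-4087080, minus strand: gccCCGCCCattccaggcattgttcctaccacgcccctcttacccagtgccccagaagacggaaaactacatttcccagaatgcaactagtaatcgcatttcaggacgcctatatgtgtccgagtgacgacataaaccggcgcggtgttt
Sec22b, chr3:97901077-97901226, plus strand: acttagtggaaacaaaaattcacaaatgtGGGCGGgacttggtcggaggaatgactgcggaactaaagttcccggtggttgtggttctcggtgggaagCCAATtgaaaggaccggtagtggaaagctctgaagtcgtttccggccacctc
Bet1l, chr7:140856384-140856533, minus strand: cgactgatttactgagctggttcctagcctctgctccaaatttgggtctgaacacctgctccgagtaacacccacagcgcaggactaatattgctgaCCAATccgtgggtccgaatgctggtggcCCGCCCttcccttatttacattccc
Stx18, chr5:38039080-38039229, plus strand: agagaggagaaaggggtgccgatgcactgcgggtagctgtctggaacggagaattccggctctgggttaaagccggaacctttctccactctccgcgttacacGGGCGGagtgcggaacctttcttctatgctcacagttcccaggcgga

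Promoters were matched by symbol for 32 of the 36 genes, and for 7 of the 8 that rose, all but Vamp7. Over the 250 bases before the first start site listed for each gene, on both strands, the GC box was found in 19 of the 32 (59.4%) and in 5 of the 7, against 32.9% of the first start sites of 27025 genes in the RefSeq table. A second start site is listed for 7 of the 32, none of them among the 7 that rose, and with these counted the GC box was found in 22 of the 32 and the CCAAT box in 15. The GC box lay 147 bases before the start of Bet1, 121 before that of Sec22b, 25 before that of Bet1l and 47 before that of Stx18. Vti1b held one at 83 bases, while the promoters of Stx8 and Vamp8 held none. The CCAAT box was found in 13 of the 32 (40.6%) and in 2 of the 7, 52 bases before the start of Sec22b and 53 before that of Bet1l, against 34.5% of first start sites. An E-box (CACGTG) was found in 4 of the 32 (12.5%, against 6.05% of first start sites) and a CRE core (TGACGT) in 2 of the 32 (6.25%, against 6.56%), and 0 of the 7 held either. The 2 CRE cores of Gosr2, at 224 and 222 bases, overlap each other on opposite strands. The GC content of the 7 promoters ran from 43.6% to 71.6%, with a median of 50.8%, against a median of 57.8% for the 32 and 52.4% for all 32851 promoters, second start sites included. The background shares are of genes at any signal, and none was taken for genes matched in signal or GC content. A match describes letters only, and no binding was measured here.

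**Figure D2:**
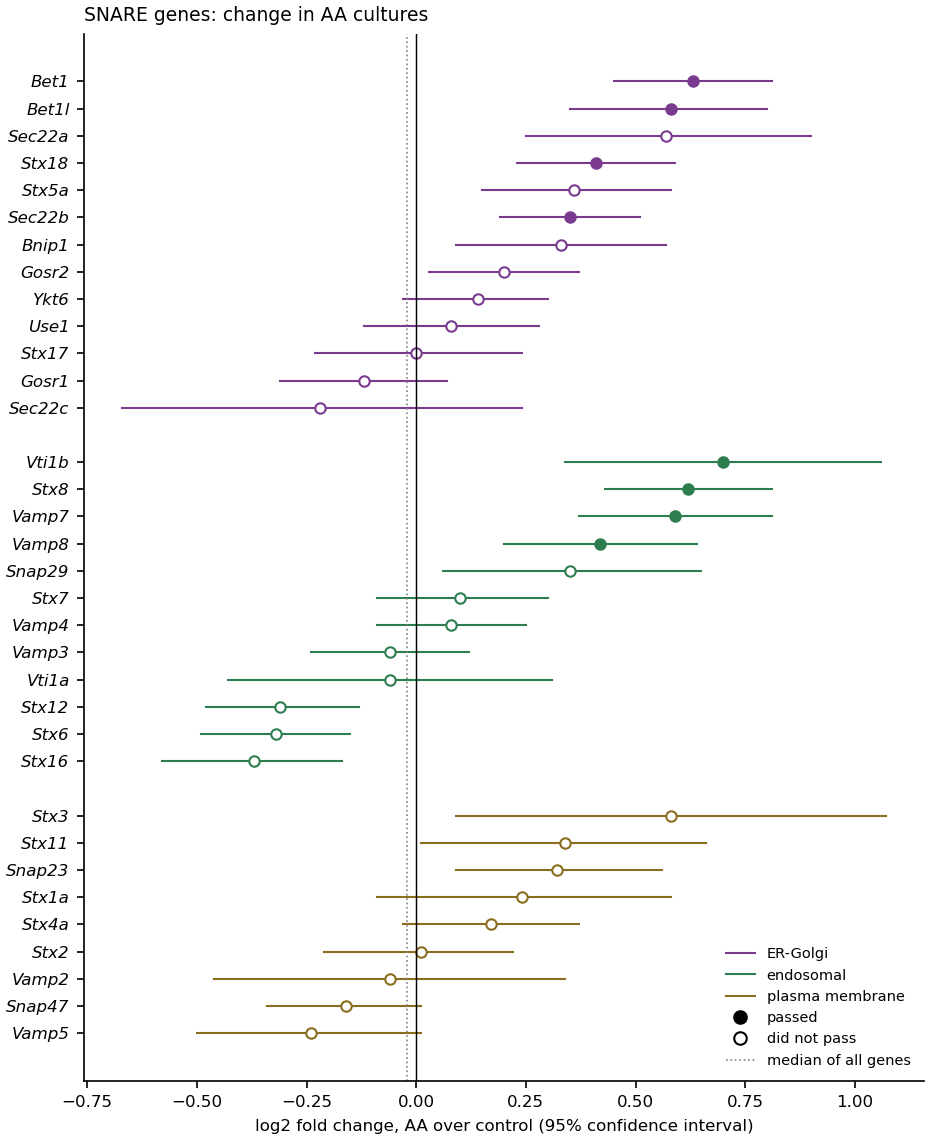
Log2 fold changes of the SNARE genes above the median signal, AA over control, by membrane group, with 95% confidence intervals from limma as lines and the median of all genes as a dotted line. Filled points passed, and they are Bet1, Bet1l, Stx18 and Sec22b of the ER-Golgi group and Vti1b, Stx8, Vamp7 and Vamp8 of the endosomal group. Stx16, Stx6 and Stx12 have intervals that lie wholly below 0 but did not pass.

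Endosomal SNAREs were spread to both sides. Of the 12 genes 4 rose and 0 fell. All 12 lay above the median signal, where 6.68% of genes passed as higher and 6.32% as lower. There were 7 positive fold changes and 5 negative, and the median was 0.09 on the log2 scale over a range of -0.37 to 0.70. By probe set, 6 of the 33 passed as higher and 1, of Stx6, as lower. The 6 read only 4 genes. Of all probe sets, dim ones included, 2.71% passed as higher and 2.50% as lower.

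The 4 endosomal genes that rose act at late endosomes, where Stx7, Vti1b and Stx8 bundle with Vamp8, or with Vamp7 for fusion with lysosomes. Of these 5 genes only Stx7 did not pass. Stx8, the Qc helix, had signals of 546, 573 and 525 on the AA arrays and 372, 362 and 362 on the control arrays. The groups lay far apart for the spread within them. Stx8 rose by 0.62 ± 0.08 on the log2 scale (SE, n = 3 each; limma adjusted p = 0.00542). Its next probe set read 238, 227 and 229.8 on the AA arrays and 156, 126 and 155 on the control arrays, and passed at 0.71 (adjusted p = 0.0116). The dimmest, under the median signal at 5.19, 11.0 and 6.43 on the AA arrays and 6.51, 8.23 and 9.50 on the control arrays, gave -0.22 (adjusted p = 0.881) with overlapping groups.

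Vamp7, an R-SNARE of late endosomes and lysosomes that also serves exocytosis, had signals of 999, 830 and 822 on the AA arrays and 584, 643 and 548 on the control arrays. AA replicate 1 was the highest, and the groups did not overlap. The change was 0.59 ± 0.09 on the log2 scale (SE, n = 3 each; limma adjusted p = 0.0113). The other probe set, at 299, 294 and 300.2 on the AA arrays and 179, 225 and 187 on the control arrays, passed at 0.64 (adjusted p = 0.0132). With the same sign and nearly the same size at both probe sets, Vamp7 resembled Stx8 and Bet1 in having its bright probe sets pass.

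Vamp8, the other R-SNARE of this step, is read by 1 probe set, at 1128, 1052 and 995 on the AA arrays and 719, 791 and 872 on the control arrays. The groups did not overlap, and the log2 fold change was 0.42 ± 0.10 (limma adjusted p = 0.0456). Vti1b, the Qb helix, is also read by 1 probe set, at 1199, 1127 and 1323 on the AA arrays and 1054, 657 and 611 on the control arrays. Control replicate 1 stood well above the other control arrays and just under the lowest AA array. The log2 fold change of 0.70 ± 0.16 was the highest of the 36 except that of Snap25, and its interval of 0.34 to 1.06 was wide (limma adjusted p = 0.0426). With no replicate block Vti1b did not pass (adjusted p = 0.0639). Vamp8 and Vti1b passed by the smallest margins of the 8. Stx7, the Qa helix of the step, had 619, 576 and 550.1 on the AA arrays and 543, 567 and 553 on the control arrays, which overlapped, with a log2 fold change of 0.10 (interval -0.09 to 0.30, adjusted p = 0.603).

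Transport from endosomes back to the trans-Golgi uses Stx16, Vti1a, Stx6 and Vamp4, and of these 4 genes limma called 0 by their brightest probe set, over a range of -0.37 to 0.08. At an unadjusted p under 0.05, 2 were lower in AA, Stx6 and Stx16, by limma and by the methods' t-test alike, while of genes above the median signal 19.4% were lower by limma and 12.3% by the methods' t-test. Stx16, the Qa helix, had signals of 249.8, 229 and 266 on the AA arrays and 336, 312 and 339 on the control arrays. Every AA array lay below every control array. The log2 fold change was -0.37 ± 0.09, the lowest of the 36, with a limma adjusted p of 0.0559.

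Stx6, the Qc helix, read 916, 871 and 793 on the AA arrays and 1083, 1086 and 1020 on the control arrays, with a log2 fold change of -0.32 ± 0.07 (limma adjusted p = 0.0502). Again the groups did not overlap. Its second probe set read 277, 284 and 284 on the AA arrays and 398, 353 and 495 on the control arrays, and passed as lower at -0.51 ± 0.11 (adjusted p = 0.0430). The one next in signal gave -0.26 (adjusted p = 0.336), and the 3 dimmest gave -0.13, 0.03 and -0.74 (adjusted p = 0.857, 0.983 and 0.550). The brightest of the 6 is marked as open to cross-hybridization.

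Vti1a, the Qb helix, had 81.6, 65.6 and 63.9 on the AA arrays and 85.3, 59.7 and 77.4 on the control arrays, with a log2 fold change of -0.06 (limma adjusted p = 0.906). Its second probe set, of similar signal, gave 0.28 (adjusted p = 0.402), and 3 probe sets under the median signal gave -0.20, -0.15 and -1.40 (adjusted p = 0.838, 0.919 and 0.272). Vamp4, the R helix, gave 0.08 at its 2 brighter probe sets and 0.43 at the dimmest (adjusted p = 0.670, 0.772 and 0.491). The confidence interval of the brightest Vamp4 probe set ran from -0.09 to 0.25.

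Recycling endosomes carry Stx12 and Vamp3. Stx12, a Qa protein also called syntaxin 13, had signals of 669, 756 and 770 on the AA arrays and 856, 878 and 1003 on the control arrays. The groups did not overlap, and the log2 fold change was -0.31 ± 0.08 (limma adjusted p = 0.0628). Its other probe set overlapped between the groups, at -0.05 (adjusted p = 0.870). Vamp3, also called cellubrevin, read 1210, 1213 and 1119 on the AA arrays and 1191, 1192 and 1277 on the control arrays, with a log2 fold change of -0.06 (interval -0.24 to 0.12). This probe set of Vamp3 is marked as open to cross-hybridization, as are some of its others. The 4 others gave -0.07, 0.01, 0.28 and -0.35, and none passed (adjusted p from 0.595 to 0.982). Snap29, a Qbc protein of endosomes and autophagosomes, had 111, 98.1 and 104 on the AA arrays and 83.8, 81.3 and 83.0 on the control arrays. These groups did not overlap, yet the log2 fold change of 0.35 ± 0.13 did not pass (limma adjusted p = 0.193), nor did 0.09 and 0.50 at its other probe sets (adjusted p = 0.889 and 0.207).

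**Figure D3:**
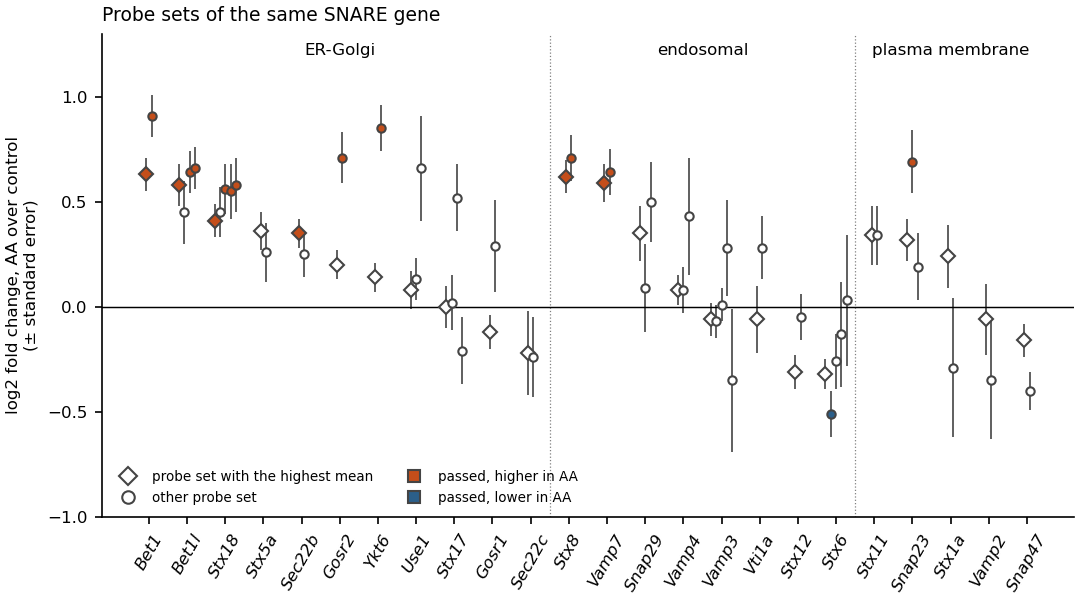
Log2 fold changes, AA over control, of each probe set above the median signal, for SNARE genes with at least 2 of them, with standard errors as lines. Diamonds are the probe sets with the highest mean and circles the others, and filled symbols passed. The dimmer probe sets of Gosr2, Ykt6 and Snap23 passed as higher, and that of Stx6 as lower, where the brightest probe set of the gene did not.

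By limma, 0 of the 11 plasma membrane SNAREs passed by the brightest probe set. Of genes above the median signal, where 9 of the 11 lay, 6.68% passed as higher and 6.32% as lower. At an unadjusted p under 0.05, 3 were higher (Snap23, Stx3 and Stx11) and 0 lower, and by the methods' t-test 1 was higher and 0 lower. Of all genes 10.7% were higher and 12.9% lower at that p by limma, and 7.46% and 8.32% by the methods' t-test. Of genes above the median signal these shares were 15.8% and 19.4% by limma, and 10.8% and 12.3% by the methods' t-test. Their fold changes ran from -0.24 to 2.25 on the log2 scale with a median of 0.24, and 8 were positive. The 8 include Snap25, at 2.25, and Vamp1, both under the median signal. By probe set, 1 of the 23 passed, that of Snap23, as higher, against 2.71% of all probe sets. A p that misses the threshold does not show that these genes stayed level, so the intervals are given.

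Stx4a, the Qa helix used for exocytosis in most cells, had signals of 428, 409 and 399.8 on the AA arrays and 377, 364 and 386 on the control arrays. The groups did not overlap, although the difference was small. It gave 0.17 on the log2 scale (interval -0.03 to 0.37, limma adjusted p = 0.361). Snap23, the Qbc partner of Stx4a outside neurons, read 402, 416 and 494 on the AA arrays and 348, 388 and 344 on the control arrays, with no overlap. It gave 0.32 ± 0.10 (interval 0.09 to 0.56, limma adjusted p = 0.131). Its second probe set read 206, 187 and 220.1 on the AA arrays and 156, 139.6 and 97.7 on the control arrays, where control replicate 3 was lowest, and passed at 0.69 ± 0.15 (adjusted p = 0.0415). The dimmest gave 0.19 (adjusted p = 0.617).

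Vamp2, the R-SNARE of synaptic and other regulated vesicles, had 167, 201 and 164 on the AA arrays and 189, 151 and 236 on the control arrays, which overlapped. It gave -0.06 on the log2 scale (interval -0.46 to 0.34), and a second probe set gave -0.35 (adjusted p = 0.592). Vamp5, known from muscle as myobrevin, read 149, 155 and 169 on the AA arrays and 170.4, 181 and 226 on the control arrays. Each AA array lay below each control array, at -0.24 ± 0.11 (limma adjusted p = 0.300), and a probe set under the median signal gave -0.43 (adjusted p = 0.584). Snap47, a Qbc protein with no membrane anchor of its own, had 2529, 2640 and 2501 on the AA arrays and 2841, 2397 and 2957 on the control arrays. Control replicate 2 was the lowest of the 6 here, and the log2 fold change was -0.16 (limma adjusted p = 0.323). This brighter probe set of Snap47 is marked as open to cross-hybridization. The other, without that mark, read 524, 546 and 547 on the AA arrays and 636, 702 and 838 on the control arrays, with no overlap and -0.40 ± 0.09 (adjusted p = 0.0501).

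Of the other plasma membrane syntaxins, Stx3, which serves apical membranes, had signals of 37.4, 46.1 and 35.8 on the AA arrays and 23.1, 31.5 and 24.4 on the control arrays. No overlap was seen, and the log2 fold change was 0.58 ± 0.21 (interval 0.09 to 1.07, limma adjusted p = 0.193). The 3 other probe sets of Stx3 lay under the median signal and gave -0.33, -0.48 and -0.39 (adjusted p = 0.791, 0.804 and 0.887). Stx11, known for the granules of cytotoxic lymphocytes, gave 0.34 at both its probe sets (adjusted p = 0.265 and 0.259). Stx2 gave 0.01 (interval -0.21 to 0.22). Stx1a, the syntaxin of synapses, read 131, 106 and 89.3 on the AA arrays and 97.3, 90.1 and 90.6 on the control arrays at a probe set open to cross-hybridization, and 18.8, 18.2 and 14.7 on the AA arrays and 25.8, 15.1 and 22.2 on the control arrays at its other one. These gave 0.24 and -0.29 (adjusted p = 0.454 and 0.726), so that the sign for Stx1a depended on the probe set.

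Of the SNAREs best known from neurons, Snap25 and Vamp1 were near the floor of the arrays. Snap25 read 1.78, 3.77 and 0.323 on the AA arrays and 0.193, 0.189 and 0.454 on the control arrays, and its log2 fold change of 2.25 had an interval of -0.44 to 4.94 (limma adjusted p = 0.372). Its other probe set gave -0.26 (adjusted p = 0.938). Vamp1 read 9.56, 2.11 and 13.7 on the AA arrays and 1.73, 5.50 and 8.16 on the control arrays, with 0.55 there and -1.05 at a dimmer probe set (adjusted p = 0.785 and 0.639). A further probe set named for both Vamp1 and another gene was left out. No level above background can be given for Snap25 or Vamp1 in either group.

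By class, 3 of the 5 Qc genes rose (Bet1, Bet1l and Stx8), as did 3 of the 11 R genes (Vamp7, Vamp8 and Sec22b), 1 of the 5 Qb genes (Vti1b), 1 of the 11 Qa genes (Stx18) and 0 of the 4 Qbc genes, of which Snap23 and Snap29 had an unadjusted limma p under 0.05. The median log2 fold change was 0.58 for Qc, 0.14 for R, 0.20 for Qb, 0.17 for Qa and 0.34 for Qbc. Of all genes 4.07% passed as higher, and 6.68% of those above the median signal. At the unadjusted limma p, 10.7% and 15.8% were higher. Differences between classes or membranes were not tested.

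Of the 36 genes 29 had more than 1 probe set, and in 8 of these the call differed between them, but no gene had probe sets that passed in opposite directions. With a gene counted when any of its probe sets passed, 11 genes were higher, against 4.75% of all genes, and 1 was lower, against 4.59%. The additions were Ykt6, Gosr2 and Snap23, and the lower one Stx6. Of the 89 probe sets 19 were higher and 1 lower, against 2.71% and 2.50% of all probe sets, dim ones included. The 19 read the 11 genes, some of them more than once, and are not separate observations.

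**Figure D4:**
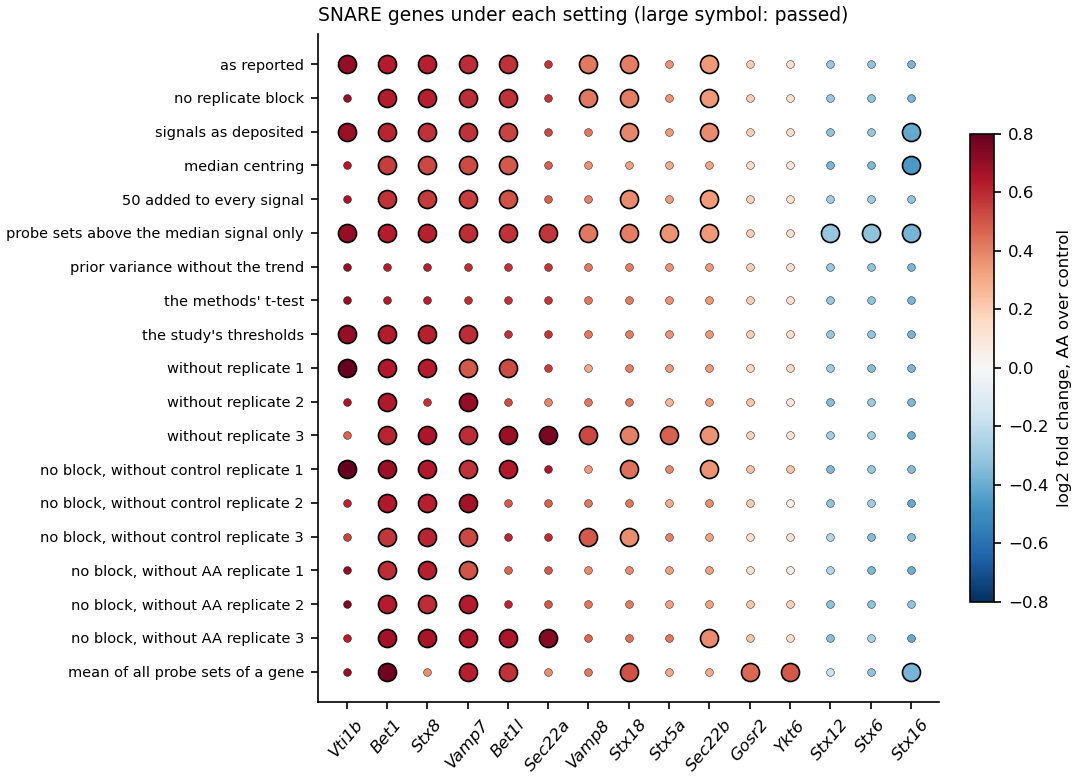
Log2 fold changes, AA over control, of 15 SNARE genes under each setting, as colour, with large symbols where the gene passed. Bet1 and Vamp7 passed under 16 of 18 alternatives, while Vamp8 passed under 4 and Vti1b under 5, and the colour of each of the 8 genes stays red throughout. Alternatives that changed only the block, the variance, the test or the thresholds could not change the colour.

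The 8 genes that rose kept a positive fold change under all 18 alternatives, deposited signals and median centring among them. Alternatives that changed only the block, the variance, the test, the thresholds or the probe sets fitted left the fold change as it was. In fits without some arrays the sign could hardly turn, as the groups did not overlap on these 8 genes. The kept sign is therefore no support for the calls. Bet1 ranged from 0.55 to 0.77 on the log2 scale and Vamp7 from 0.49 to 0.70, and both passed under 16. Stx8 passed under 14, Bet1l under 10, Stx18 under 8, Sec22b under 7, Vti1b under 5 and Vamp8 under 4. Without replicate 1, Stx18, Sec22b and Vamp8 no longer passed, without replicate 2 the same was true of all but Bet1 and Vamp7, and without replicate 3 of Vti1b alone. Stx16, which did not pass in the fit reported here, passed as lower under 4 of the 18. Among the fits without 1 array and with no block, 3 genes passed without AA replicate 1, AA replicate 2 or control replicate 2, and 5 without control replicate 3, the array with the highest Gapdh ratio.

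The machinery that handles SNAREs was read from lists of partner genes. Nsf, the ATPase that takes spent bundles apart, had signals of 797, 821 and 721 on the AA arrays and 633, 595 and 544 on the control arrays. No control array reached the AA range, and the log2 fold change was 0.42 ± 0.08 (SE, n = 3 each; limma adjusted p = 0.0212). Its adaptors Napa, Napb and Napg gave 0.10, -0.13 and 0.17 (adjusted p = 0.650, 0.773 and 0.405). Scfd1, also called Sly1, the SM protein that works with Stx5a, read 539.9, 570.3 and 593 on the AA arrays and 372, 426 and 432 on the control arrays. It rose by 0.51 ± 0.08 on the log2 scale (limma adjusted p = 0.0113). Nsf and Scfd1 were the 2 that rose among 11 such genes measured, and 0 fell, with 3 higher and 0 lower at an unadjusted p under 0.05, by limma and by the methods' t-test. Of the 29 probe sets that read these genes, 2 passed as higher and 0 as lower. No dimmer probe set of Nsf or Scfd1 therefore passed. Of genes above the median signal, 6.68% passed as higher and 6.32% as lower, and 15.8% and 19.4% did at the unadjusted limma p. Stxbp3, the SM partner of Stx4a, gave 0.06 (adjusted p = 0.768) and Vps45, that of Stx16, 0.15 (adjusted p = 0.645).

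Of 32 subunits of tethers, which catch a vesicle before SNAREs engage, 4 rose and 0 fell by limma, with 9 higher and 2 lower at an unadjusted p under 0.05, and 7 and 1 by the methods' t-test. All 32 lay above the median signal, where 6.68% of genes passed as higher and 6.32% as lower, and where 15.8% and 19.4% did so at the unadjusted limma p (10.8% and 12.3% by the methods' t-test). Nbas, of the ER complex that binds Stx18, had 456, 431 and 410.3 on the AA arrays and 322, 318 and 327 on the control arrays, and rose by 0.46 ± 0.09 on the log2 scale (limma adjusted p = 0.0241). Its complex partners Zw10 and Rint1 gave 0.25 and 0.42 and did not pass (adjusted p = 0.184 and 0.123). Uso1, or p115, a tether of ER-derived vesicles at the Golgi, had 1277, 1131 and 1132 on the AA arrays and 876, 846 and 938 on the control arrays, and rose by 0.41 ± 0.08 (adjusted p = 0.0277). Cog6, of the tether complex within the Golgi, had 467, 440.5 and 468 on the AA arrays and 304, 308 and 345 on the control arrays, and rose by 0.57 ± 0.09 (adjusted p = 0.0102). The other 7 COG genes ran from -0.24 to 0.28 and did not pass, although a dimmer probe set of Cog8 did at 0.79 (adjusted p = 0.00620). Vps51, of the complex that receives endosomal vesicles at the trans-Golgi, had 156, 139.9 and 134 on the AA arrays and 104, 87.7 and 84.1 on the control arrays, and rose by 0.67 ± 0.12 (adjusted p = 0.0183). Of the 80 probe sets that read the 32 tether genes, 5 passed as higher and 0 as lower. No dimmer probe set of Nbas, Uso1, Cog6 or Vps51 therefore passed.

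Of 14 other regulators that bind SNAREs, limma called 0, where 4.07% of all genes passed as higher and 3.85% as lower. Of genes above the median signal, where 10 of the 14 lay, 6.68% and 6.32% passed. At an unadjusted p under 0.05 Vat1 was higher and Snapin and Stxbp4 lower (10.7% and 12.9% of all genes). By the methods' t-test 0 were higher and 1 lower (7.46% and 8.32% of all genes). Whether this list differs from all genes was not tested. Of 24 synaptotagmins and Munc13 relatives, the calcium sensors and primers of regulated exocytosis, 0 passed as higher and 2 as lower, against 4.07% and 3.85% of all genes, with 2 higher and 5 lower at an unadjusted p under 0.05, against 10.7% and 12.9%, and 1 and 4 by the methods' t-test, against 7.46% and 8.32%. Only 4 of the 24 lay above the median signal, and of all genes at or below it 0.231% passed as higher and 0.217% as lower. Syt11 had 65.4, 57.7 and 55.5 on the AA arrays and 97.1, 102 and 98.7 on the control arrays, with no overlap, and fell by 0.73 on the log2 scale (limma adjusted p = 0.0281). The other, Unc13c, lay under the median signal, at 2.70, 4.25 and 8.77 on the AA arrays and 14.5, 24.6 and 32.6 on the control arrays, so no fold is given for it. Stx19, a SNARE outside the 36, was near the floor and did not pass (1.22, adjusted p = 0.645).

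**Figure D5:**
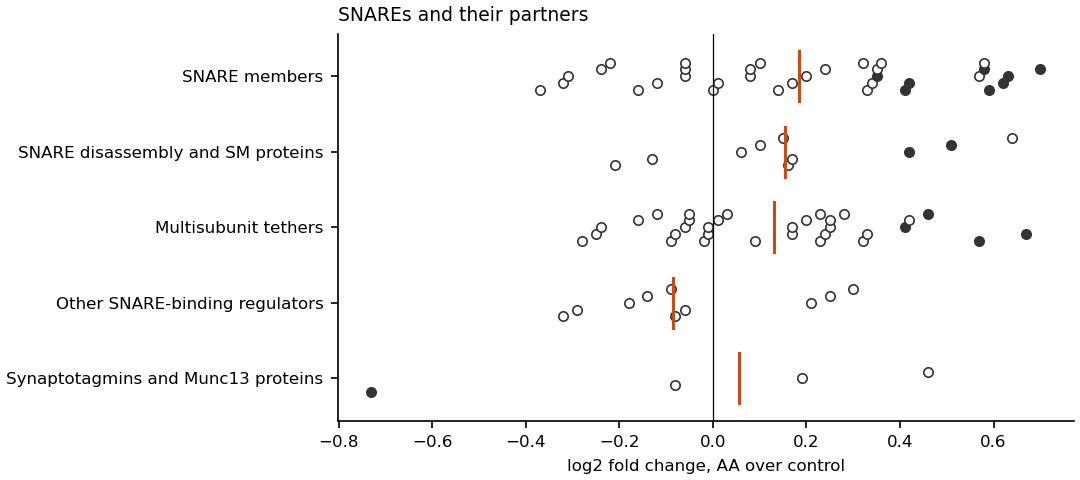
Log2 fold changes, AA over control, of SNARE genes and partner lists, for genes above the median signal, each point a gene by its brightest probe set, filled where it passed, with list medians as bars. The medians are 0.18 for 34 SNARE genes, 0.16 for 10 disassembly and SM genes, 0.13 for 32 tether subunits, -0.08 for 10 other regulators and 0.06 for 4 synaptotagmin and Munc13 relatives.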

How the data were processed

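Linear intensity values of each probe set on each of the 6 arrays were deposited, for 3 AA and 3 control cultures. MAS5 is named in the submitters' processing notes, and the trimmed mean of each array is 150. The methods of the study describe quantile normalization, GC-RMA and paired tests, and the first 2 are not in these values. Of 45101 probe sets, 64 controls were set aside. Signals were put on a log2 scale, quantile-normalized and fitted with limma 3.58.1 in R 4.3.3, with condition and replicate number as terms and a prior variance that follows the signal (2 residual and 6.18 prior degrees of freedom). The fit was tested on simulated data.

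The block was kept because the methods name paired tests. Deviations of same-numbered arrays correlated at 0.0165, 0.00369 and 0.00994 over all probe sets, and at 0.182, 0.0251 and 0.0921 over those above the median signal, not all over 0.1, so the numbers were not shown to pair the samples. The platform annotation gave 34945 probe sets 1 gene, 932 several and 9160 none, and RefSeq changed 0 symbols. Every SNARE gene is named, with per-array signals where it passed or its probe sets disagreed, and each partner gene that passed. Members, groups, bundles, motifs and lists were chosen with earlier results of these data known. The number of arrays limits precision.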

Additional observations from a re-analysis of the deposited data

How the results depend on the processing

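With no replicate block, 7 SNARE genes were higher and 0 lower, and Vti1b was the one lost, while over all probe sets 1089 were higher and 1039 lower. The numbers alone do not show pairing, and the block moved no other SNARE call. Of SNARE genes, 4 were higher with median centring. At the study's thresholds (a fold of 1.5 or more, with p below 0.01 before adjustment) 4 were higher. The p there is that of limma, while the study names paired tests. With 1 prior variance for all signals 0 were higher, and 0 by the methods' t-test after adjustment. The last 2 called 0 probe sets of any gene, with 5203 and 5439 at p below 0.05 before adjustment. Leaving out a replicate number gave 2 to 9 genes higher, and leaving out 1 array with no block gave 3 to 7 (5 without control replicate 3), with 0 lower in each. SNARE genes lower numbered 1 with deposited signals, 1 with median centring and 1 by the mean of all probe sets (Stx16 in each), 3 among probe sets above the median signal (Stx6, Stx12 and Stx16) and 1 by any probe set (Stx6). Deposited signals (7), 50 added to every signal (6), the mean of all probe sets (6), probe sets above the median signal (10) and any probe set (11) stayed within 1.5 times the 8 reported. Median centring gave 842 probe sets higher and 1291 lower, against 1219 and 1124, and deposited signals gave 1148 and 1212. With median centring the median log2 fold change of all probe sets was -0.05, against -0.01. The cause of these shifts was not tested. Signals under the median of all probe sets, as of Snap25 and Vamp1, limit what can be read.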
